A study of Mus musculus with 2 samples.

Results

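Oxidative phosphorylation subunits are the nuclear-encoded proteins of respiratory complexes I to IV, of the ATP synthase (complex V) and of cytochrome c. They were chosen by gene symbol: every gene starting with Nduf (without the Ndufaf assembly factors), Cox4 to Cox8, Uqcr or Atp5, together with Sdha, Sdhb, Sdhc, Sdhd and Cycs, pseudogenes left out. This gave 91 of the 34290 genes listed, of which 39 belong to complex I, 4 to complex II, 8 to complex III, 20 to complex IV and 19 to complex V, with Cycs alone as the carrier. Ndufa4 and Ndufa4l2 were counted with complex IV, where the Ndufa4 protein resides. The rule takes no gene of mitochondrial DNA, and it leaves out Cyc1, the cytochrome c1 protein of complex III, because of its symbol.

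Complexes I and II pass electrons from NADH and succinate to ubiquinone, complex III passes them on to cytochrome c, and complex IV hands them to oxygen. Complexes I, III and IV pump protons across the inner mitochondrial membrane as they do so, and complex V makes ATP from the return of those protons. All subunits of complex II are encoded in the nucleus, whereas the other 4 complexes also need subunits made inside the mitochondrion. In immune cells, oxidative phosphorylation is known to be more prominent in regulatory T cells, memory T cells and resting or tissue-repair macrophages, and glycolysis in newly activated effector T cells and inflammatory macrophages.

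The cells came from tumours of MC38, a mouse colorectal cancer line, taken 21 days after engraftment from otherwise untreated mice. The TMEM16F KO library came from tumours of MC38 cells without TMEM16F, a calcium-activated phospholipid scramblase encoded by Ano6, and the vector control library from tumours of MC38 cells carrying the vector. The labels put the genotype in the engrafted cells, so the immune cells of both libraries belong to the host. The series text speaks of tumour-infiltrating lymphocytes, and how many mice and knockout clones there were, and of which strain, is not stated in the labels. There was 1 library in each group, so no difference below has a replicate check and no test was run.

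Single cells were read with the 10x Genomics 3′ chemistry, which counts unique molecular identifiers (UMIs), that is, captured transcript ends, so that a value does not scale with transcript length. The TMEM16F KO library held 5993 barcodes and 49777630 UMIs, of which 5688 cells were kept, and the vector control library 5253 barcodes and 46338994 UMIs, of which 5028 cells were kept. The libraries shared 10 barcode strings. Kept cells with under 2000 UMIs made up 14.6% of TMEM16F KO cells and 20.5% of vector control cells. Ano6 stood at 33.3 CPM in the TMEM16F KO and 28.7 CPM in the vector control library over all kept cells. The knockout is in the engrafted cells and most kept cells were leukocyte-like, and 3′ reads may lie outside the deleted stretch, so this does not check the label. CPM are UMIs per 1000000 UMIs of the library or class. All intervals in brackets are exact 95% intervals for counting error only, which is less than the true error for a gene whose UMIs come from a handful of cells.

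Cells were put into classes by UMIs of fixed marker genes. There were 955 TMEM16F KO and 717 vector control CD8 T-like cells (led by Cd8a and Cd8b1), 201 and 141 Treg-like cells (Foxp3, Tnfrsf4), 146 and 91 NK-like cells (Gzma, Ncr1), 2021 and 2096 macrophage-like cells (C1qa, C1qb, C1qc), 340 and 312 monocyte-like cells (Chil3, Plac8), 100 and 98 DC-like cells (Fscn1, Ccr7) and 67 and 84 stroma-like cells (Bgn, Sparc, Col1a1). The leading genes of stroma-like cells also included Serpinh1, Ccn1, Tm4sf1, Col3a1, Crabp1, Dcn and Sox9. Their median depth was 11884 UMIs in TMEM16F KO and 25154 UMIs in vector control cells. Whether this class held engrafted MC38 cells, which carry the genotype, was not tested, so its cells need not belong to the host. The 49 and 22 neutrophil-like cells fell under the limit of 50 per library and are given by level only. Other T-like cells, other phagocyte-like cells and 1099 and 1079 unassigned cells entered the values over all kept cells and were not compared on their own.

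The promoters of these genes are known for sites of nuclear respiratory factor 1 (NRF1), of the ETS family that includes GABP (also called NRF2), and of YY1. RefSeq windows running from 250 bases before to 50 bases after the start of transcription (GRCm38.p6) were found for 74 members. They were searched on both strands for GCATGCGC (NRF1), CCGGAAG (ETS) and AAGATGGC (YY1). The last 3 letters of the ETS motif are the first 3 of the YY1 motif, and 0 members held such an overlapping pair. At least 1 of the motifs occurred in the windows of 32 members (43.2%), against 14.9% of all 27025 genes with a window and 18.7% of the 17492 protein-coding ones. The NRF1 letters occurred in 11 members (14.9%, against 3.05% of all genes and 3.94% of protein-coding ones). The ETS letters occurred in 17 (23.0%, against 9.93% and 12.9%) and the YY1 letters in 10 (13.5%, against 3.19% and 3.57%). By complex, at least 1 motif occurred in 14 of 35 members of complex I, 2 of 3 of complex II, 3 of 5 of complex III, 3 of 14 of complex IV and 9 of 16 of complex V. The YY1 letters were found in 7 members of complex I and 3 of complex V and in 0 of the complex II, III and IV members matched. A match is a run of letters and not a shown binding site.

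Windows of 4 members are given as examples, with the motif letters in capitals, and a link between motifs and ratios was not tested. Atp5mg holds the ETS and the NRF1 letters and was among the 2 members of complex V nearest to their vector control level. Ndufa5 holds none of the motifs and was among the 2 members of complex I furthest below it. Cycs (chr6:50566520-50566819, minus strand) holds the NRF1 letters, Uqcr11 (chr10:80406772-80407071, minus strand) holds the ETS and the NRF1 letters and was among the members furthest below its vector control level, Ndufs7 (chr10:80249199-80249498, plus strand) holds the YY1 letters and stood close to its vector control level, and Ndufa4 (chr6:11907401-11907700, minus strand) holds none of them and varied most between cell classes among the common members.
Cycs: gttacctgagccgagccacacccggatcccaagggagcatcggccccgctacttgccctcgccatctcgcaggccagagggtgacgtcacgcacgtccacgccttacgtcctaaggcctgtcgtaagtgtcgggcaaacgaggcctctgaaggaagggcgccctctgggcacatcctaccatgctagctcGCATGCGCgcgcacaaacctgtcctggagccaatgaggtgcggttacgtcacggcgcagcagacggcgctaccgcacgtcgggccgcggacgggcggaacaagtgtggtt
Uqcr11: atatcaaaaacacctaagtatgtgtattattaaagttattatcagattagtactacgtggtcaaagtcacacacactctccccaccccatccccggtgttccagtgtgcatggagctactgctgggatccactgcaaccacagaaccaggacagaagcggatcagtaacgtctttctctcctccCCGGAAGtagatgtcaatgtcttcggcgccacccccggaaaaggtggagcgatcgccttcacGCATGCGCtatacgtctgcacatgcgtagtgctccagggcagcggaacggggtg
Ndufs7: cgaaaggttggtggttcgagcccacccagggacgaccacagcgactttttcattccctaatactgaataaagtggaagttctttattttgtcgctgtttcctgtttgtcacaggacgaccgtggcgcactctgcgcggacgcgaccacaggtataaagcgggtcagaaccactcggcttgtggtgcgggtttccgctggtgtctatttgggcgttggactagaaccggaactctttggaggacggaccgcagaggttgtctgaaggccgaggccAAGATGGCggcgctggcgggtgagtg
Ndufa4: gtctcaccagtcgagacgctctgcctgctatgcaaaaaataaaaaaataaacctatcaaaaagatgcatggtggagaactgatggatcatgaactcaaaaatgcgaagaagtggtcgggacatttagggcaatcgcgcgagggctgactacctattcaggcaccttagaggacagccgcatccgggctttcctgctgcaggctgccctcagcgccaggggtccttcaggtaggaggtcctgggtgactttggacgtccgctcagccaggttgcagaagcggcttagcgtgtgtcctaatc

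Members made up about the same part of the transcripts in each of the 7 compared classes. Their part was smaller in the TMEM16F KO library than in the vector control library in each of those classes. Over all kept cells the members together had 942115 UMIs in the TMEM16F KO and 1012586 UMIs in the vector control library, which is 2.05% against 2.35% of all UMIs, a log2 ratio of -0.20 (ratio 0.873, 0.870 to 0.875). In macrophage-like cells they held 2.10% of UMIs in TMEM16F KO and 2.46% in vector control cells (log2 ratio -0.23), in monocyte-like cells 2.08% against 2.34% (-0.17), and in DC-like cells 2.15% against 2.39% (-0.15). Among lymphocytes the shares were 2.06% against 2.23% in CD8 T-like cells (log2 ratio -0.12), 2.13% against 2.27% in Treg-like cells (-0.10) and 1.96% against 2.14% in NK-like cells (-0.13). Stroma-like cells had 1.99% against 2.12% (-0.09). Every one of these 8 ratios had a counting interval below 1. Without cycling cells the log2 ratio was -0.043 in Treg-like, -0.063 in NK-like and -0.14 in stroma-like cells. With cells weighted alike it was -0.056 in Treg-like cells, and in stroma-like cells it was -0.051 with median-ratio scaling and -0.17 without mitochondrial, ribosomal protein and haemoglobin genes in the denominator. The classes come from the same 2 libraries, so their common direction is not 7 separate observations.

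Cell by cell, the middle of the distribution showed the same order as the sums in the compared classes except Treg-like cells. The share of a cell's UMIs held by members had a median of 2.03% in TMEM16F KO macrophage-like cells (quartiles 1.63% and 2.38%) and of 2.46% in vector control macrophage-like cells (2.07% and 2.88%). In CD8 T-like cells the median was 2.02% in TMEM16F KO and 2.19% in vector control cells. In Treg-like cells the medians were level at 2.11% and 2.11%. Neutrophil-like cells stood apart from the other classes, with medians of 0.99% in TMEM16F KO and 0.80% in vector control cells, over 49 and 22 cells of low depth (median 2135 and 2444 UMIs).

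**Figure D1:**
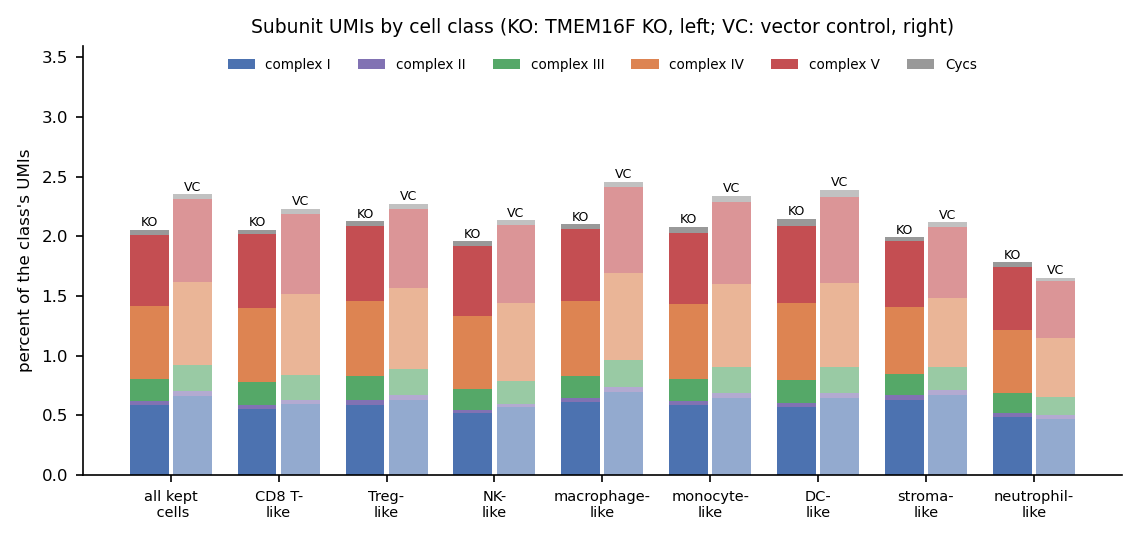
Percent of a class's UMIs (vertical axis) held by the members of each complex and by Cycs, stacked, for TMEM16F KO (left bar, full colour) and vector control (right bar, pale). The stacks reach 2.05% and 2.35% over all kept cells, and the complexes keep nearly the same proportions in the 2 bars of each class with at least 50 cells.

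Transcripts outside the members also differed between the libraries, in both directions, and their part in the result was not tested. Ribosomal protein genes had a log2 ratio of -0.23 over all kept cells and -0.32 in macrophage-like cells. The nuclear RNA Malat1 had a log2 ratio of 0.50 over all kept cells and 0.75 in macrophage-like cells. Cycling cells, defined by UMIs of at least 3 cycling markers, made up 10.7% of TMEM16F KO and 25.4% of vector control macrophage-like cells, and 16.3% of TMEM16F KO and 25.4% of vector control CD8 T-like cells. Cycling macrophage-like cells had more member UMIs than the other macrophage-like cells in both libraries, at 22789 CPM against 20649 CPM in the TMEM16F KO library (1.10-fold) and 26115 CPM against 23672 CPM in the vector control library (1.10-fold). Among non-cycling macrophage-like cells alone, the log2 ratio between the libraries was -0.20, and among cycling ones also -0.20. Among CD8 T-like cells it was -0.10 in both the non-cycling and the cycling cells.

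Transcripts of the other lineages in a class also differed between the libraries. In CD8 T-like cells all 13 phagocyte markers were read in both libraries and all 13 were higher in TMEM16F KO cells, with a summed log2 ratio of 0.87 and Lyz2 highest at 849 CPM in the TMEM16F KO and 400.4 CPM in the vector control library. The same sum had a log2 ratio of 0.63 in Treg-like, 0.49 in NK-like and 1.66 in stroma-like cells, with 12, 8 and 13 of 13 markers higher in TMEM16F KO cells. In DC-like cells it went the other way, at -0.23 with 3 of 13 higher. In macrophage-like cells the 9 T cell markers were all read in both libraries, at 0.26 on the log2 scale, none above 15.5 CPM. In DC-like and stroma-like cells the same 9 had summed log2 ratios of 0.70 and 1.14. The part of such foreign transcripts in the member ratios was not tested.

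The 5 complexes stood close together. Over all kept cells complex I had 5835 CPM in the TMEM16F KO and 6632 CPM in the vector control library (log2 ratio -0.18), complex II had 347 CPM against 393 CPM (-0.18), complex III had 1856 CPM against 2177 CPM (-0.23), complex IV had 6154 CPM against 6949 CPM (-0.18) and complex V had 5954 CPM against 6944 CPM (-0.22). Cycs, which carries electrons between complexes III and IV and also starts apoptosis when released, had 397 CPM against 446 CPM (-0.17). The highest and the lowest of the 5 complex ratios differed by 0.06 on the log2 scale. Of all member UMIs, complex I held 28.4% in TMEM16F KO and 28.2% in vector control cells, complex III 9.03% and 9.25%, complex IV 30.0% and 29.5%, and complex V 29.0% and 29.5%. Between classes the part of complex I differed more, at 31.7% and 31.6% in stroma-like, 26.4% and 26.5% in NK-like and 26.4% and 27.0% in DC-like cells. Complex IV, with Ndufa4 counted in it, held 28.2% and 27.3% in stroma-like cells, the only compared class in which complex I held more.

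Small shifts between complexes went beyond counting error. Set against the other members, complex V was lower in TMEM16F KO cells at a ratio of 0.976 (0.970 to 0.981) over all kept cells and 0.963 (0.956 to 0.970) in macrophage-like cells. It stood at 0.970 (0.949 to 0.992) in monocyte-like and 0.966 (0.936 to 0.996) in stroma-like cells. Complex III stood at 0.974 (0.965 to 0.983) over all kept cells, 0.959 (0.946 to 0.972) in macrophage-like cells and 0.930 (0.895 to 0.967) in monocyte-like cells. Complex IV was higher relative to the others, at 1.021 (1.016 to 1.027) over all kept cells and 1.022 (1.015 to 1.030) in macrophage-like cells. In DC-like cells it stood at 1.032 (1.002 to 1.063) and in stroma-like cells at 1.047 (1.015 to 1.080). Complex I was slightly higher relative to the others in macrophage-like cells, at 1.03 (1.02 to 1.04), and slightly lower in DC-like cells, at 0.968 (0.938 to 0.999). Complex II stood at 1.139 (1.039 to 1.249) in monocyte-like cells, where its own CPM was 371 against 368 and did not differ beyond counting error, as in Treg-like, NK-like and stroma-like cells. In CD8 T-like and NK-like cells no complex departed from the others beyond counting error, and in Treg-like cells only Cycs did, at 0.864 (0.748 to 0.998). Its own log2 ratio there was -0.30, which turned to 0.11 without cycling cells. Against the other members Cycs was higher in TMEM16F KO monocyte-like cells, at 1.11 (1.02 to 1.20), and DC-like cells, at 1.12 (1.02 to 1.24).

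**Figure D2:**
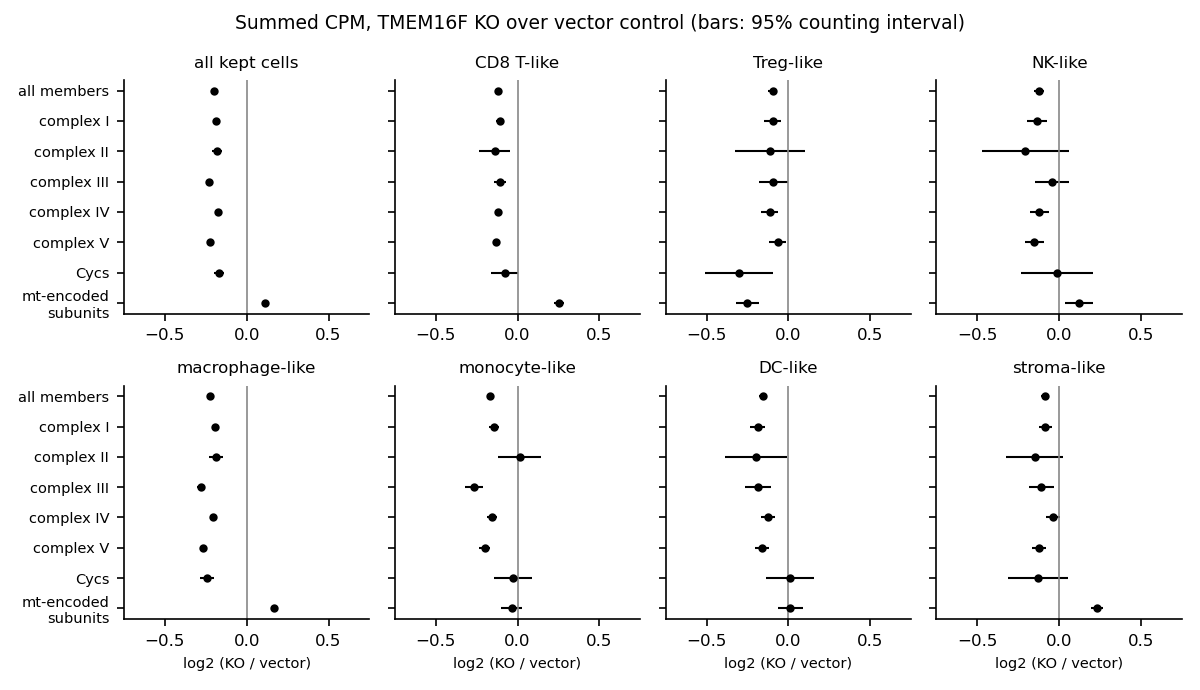
Log2 ratio of summed CPM, TMEM16F KO over vector control (horizontal axis), for all members, each complex, Cycs and the 13 mitochondrially encoded subunits, in all kept cells and 7 classes. Bars are 95% counting intervals. The nuclear complexes lie left of 0 nearly throughout, while the mitochondrially encoded subunits lie right of 0 in CD8 T-like (0.25) and macrophage-like cells (0.17) and left of it in Treg-like cells (-0.25). With cells weighted alike, which is not drawn, the mitochondrially encoded subunits went the other way in CD8 T-like cells.

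Over all kept cells the partner subunits made in the mitochondrion did not share the nuclear pattern. In Treg-like cells they were lower in the TMEM16F KO library, as the nuclear members were, at a log2 ratio of -0.25. The 13 mitochondrially encoded genes had 2908 CPM in the TMEM16F KO and 2692 CPM in the vector control library over all kept cells, a log2 ratio of 0.11 against -0.20 for the nuclear members. By complex, the ratio was 0.06 for the mt-Nd genes of complex I, 0.02 for mt-Cytb of complex III, 0.16 for the mt-Co genes of complex IV and 0.12 for mt-Atp6 and mt-Atp8 of complex V. In macrophage-like cells mt-Co1, the catalytic subunit of complex IV, had 429 CPM in the TMEM16F KO and 302 CPM in the vector control library (log2 ratio 0.51), and mt-Nd5 had 19.997 CPM against 15.480 CPM (0.37), while mt-Cytb stood at 352 CPM against 349 CPM (0.01). These 13 genes gave only 0.291% of UMIs in TMEM16F KO and 0.269% in vector control cells, with 636 and 820 cells at 0, and the 10% of cells with the highest mitochondrial share held 38.7% of them in TMEM16F KO and 43.2% in vector control cells.

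Member by member, most ratios were small and pointed the same way. A member was counted with at least 50 UMIs over both libraries in a class, and called where its log2 ratio passed 0.32 in either direction with a counting interval that excluded 1 for the ratio. Over all kept cells 87 members reached 50 UMIs. Of the other 4, Cox8b and Ndufb11b were at 0 in both libraries, Cox7b2 had 1 UMI in each and Cox8c had 1 UMI in the TMEM16F KO library. Of the 87, 85 lay below 1 and 79 had an interval wholly below 1, and the median log2 ratio was -0.20, against 0.02 for the 13891 genes with 50 UMIs, of which 47.3% lay below 1. Called lower were 11 members, while 11.4% of all genes were, and called higher was 1, while 13.5% of all genes were. The share of members called lower was near that of all genes, so this count is no result about the members, whose ratios lay close together below 1.

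**Figure D3:**
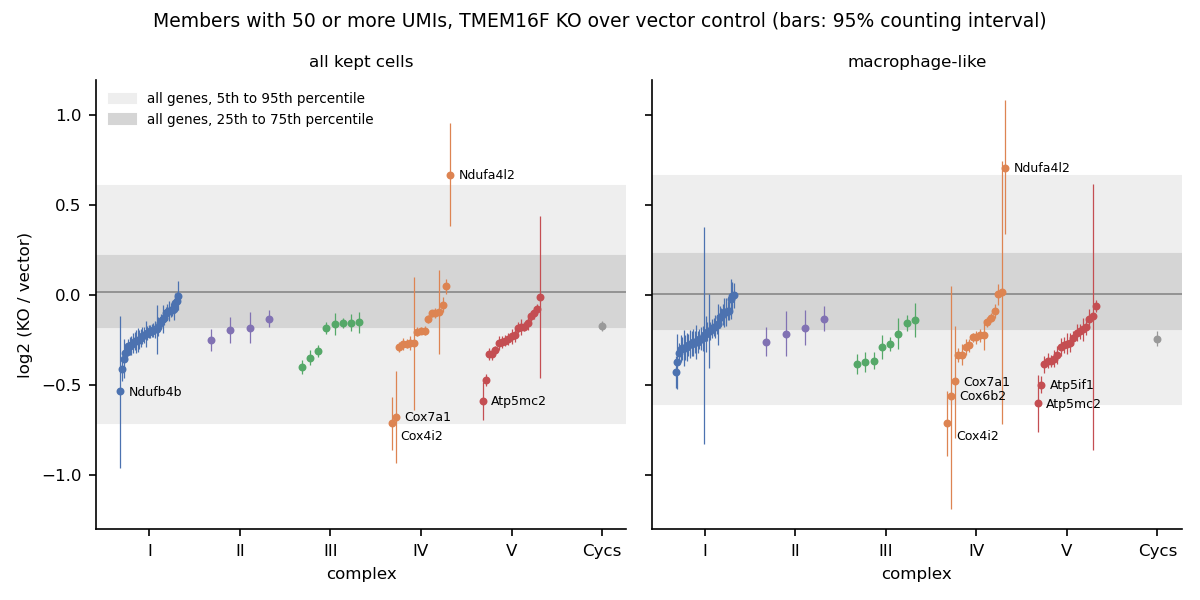
Log2 ratio of each member with at least 50 UMIs, TMEM16F KO over vector control (vertical axis), by complex and in rising order, in all kept cells and in macrophage-like cells. Bars are 95% counting intervals, and grey bands show the spread of all genes with 50 UMIs. Most members sit between -0.4 and 0, Cox4i2 lies lowest at -0.71 in both panels, and Ndufa4l2 lies highest at 0.67 and 0.71.

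Complex I had 38 members with 50 UMIs, and all 38 lay below 1. Its most abundant transcripts were the accessory subunits Ndufb1 (293 CPM in the TMEM16F KO and 323 CPM in the vector control library), Ndufa13 (285 against 317 CPM) and Ndufa2 (266 against 306 CPM). Ndufa5, an accessory subunit of the matrix arm, had 80.2 CPM in the TMEM16F KO and 107 CPM in the vector control library, a log2 ratio of -0.41. Ndufb4, an accessory subunit of the membrane arm, had 28.3 against 36.1 CPM (-0.35), and its near copy Ndufb4b had 1.83 against 2.65 CPM (-0.53), with reads that may be divided between the 2 genes. At the other end, Ndufa9, which sits near the ubiquinone site, had 56.6 CPM in both libraries, and Ndufs7, which holds the last iron-sulfur cluster before ubiquinone, had 146 against 149 CPM (-0.03). Ndufs1, the largest subunit of the electron-input part, had only 18.6 against 21.2 CPM.

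Complex II, succinate dehydrogenase, also runs a step of the TCA cycle, and its 4 subunits all lay below 1 with intervals that excluded it. Sdha, which binds succinate and the flavin, had 45.5 CPM in the TMEM16F KO and 51.5 CPM in the vector control library (log2 ratio -0.18). Sdhb, the iron-sulfur subunit, had 144 against 157 CPM (-0.13). The membrane anchors Sdhc and Sdhd had 63.9 against 73.0 CPM (-0.19) and 93.8 against 111 CPM (-0.25). None was called over all kept cells, and Sdhd alone was called in a class, lower in stroma-like cells at 62.7 against 96.1 CPM.

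In complex III the 8 members lay between -0.40 and -0.15. The core subunit Uqcrc1 had 97.6 CPM in the TMEM16F KO and 108 CPM in the vector control library (log2 ratio -0.15), the Rieske iron-sulfur protein Uqcrfs1 161 against 179 CPM (-0.15), and Uqcrh, the hinge protein and most abundant transcript of the complex, 508 against 565 CPM (-0.15). Uqcrb, another small subunit, had 330.1 against 374 CPM (-0.18). The small subunits Uqcr11, at 193 against 254 CPM (-0.40), and Uqcr10, at 198 against 252 CPM (-0.35), were called lower, and Uqcrq, at 277 against 343 CPM (-0.31), came just short of the fold. In macrophage-like cells Uqcr10, Uqcr11 and Uqcrq were called lower. In monocyte-like cells Uqcr10, Uqcr11 and Uqcrh were, where Uqcr11 had 185 against 274 CPM (-0.57) and Uqcrh 423 against 532 CPM (-0.33).

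Complex IV held the most abundant members of all. Cox8a had 940 CPM in the TMEM16F KO and 1077 CPM in the vector control library (log2 ratio -0.20), Cox4i1 had 922 against 989 CPM (-0.10) and Cox5a had 823 against 901 CPM (-0.13). Cox7a2l, which binds complexes III and IV into supercomplexes, was the only common member with an interval above 1, at 219 against 211 CPM, a ratio of 1.04 (1.01 to 1.07), and in macrophage-like cells it was level at 216 against 215 CPM. Cox5b (484 against 609 CPM, -0.33) and Cox6a1 (205 against 258 CPM, -0.33) were called lower in macrophage-like cells.

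The less common isoforms of complex IV were unevenly spread over the cells. Cox4i2 (chr2:152754173-152765037, plus strand), the Cox4 isoform that low oxygen induces in several tissues, had 13.3 CPM in the TMEM16F KO and 21.7 CPM in the vector control library over all kept cells (log2 ratio -0.71). Most of its UMIs were in macrophage-like cells, at 19.5 CPM in the TMEM16F KO and 31.9 CPM in the vector control library, and 220 and 348 of them had at least 1 UMI. It made up 1.96% (1.77 to 2.16) of Cox4i1 and Cox4i2 UMIs together in TMEM16F KO macrophage-like cells and 2.91% (2.71 to 3.13) in vector control ones. In monocyte-like cells its share was level, at 2.47% against 2.44%. In stroma-like cells it was higher, at 2.29% (1.40 to 3.51) in TMEM16F KO and 0.70% (0.38 to 1.18) in vector control cells, from 20 and 14 UMIs, under the limit of 50, and 1 TMEM16F KO cell held 14 of the 20. It had 0 UMIs in Treg-like cells of either library, which allows up to 2.78 CPM in TMEM16F KO and 3.44 CPM in vector control cells if a count of 0 is taken to allow 3 UMIs, and 0 UMIs in NK-like cells.

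Ndufa4l2 (chr10:127514967-127517154, plus strand), a relative of Ndufa4 that low oxygen induces through HIF1A, was the member with the largest ratio above 1. It had 276 UMIs in the TMEM16F KO and 163 UMIs in the vector control library (6.02 against 3.79 CPM, log2 ratio 0.67), held by 57 and 46 cells, with up to 29 and 15 UMIs in 1 cell. In macrophage-like cells it had 7.62 against 4.66 CPM and made up 7.18% (6.13 to 8.34) of Ndufa4 and Ndufa4l2 UMIs in the TMEM16F KO and 3.90% (3.20 to 4.71) in the vector control library. Only 31 TMEM16F KO and 24 vector control macrophage-like cells had a UMI of it, so the counting interval does not describe the spread between cells. Stroma-like cells had 35 UMIs in 6 TMEM16F KO cells and 13 UMIs in 8 vector control cells. Monocyte-like cells went the other way, with 7 UMIs in 4 TMEM16F KO cells and 24 UMIs in 4 vector control cells. Lymphocytes held next to none, with 4 UMIs in TMEM16F KO and 0 in vector control CD8 T-like cells and 0 in Treg-like and NK-like cells of both libraries.

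Cox6a2 (chr7:128205435-128206387, minus strand), known as the heart and muscle isoform of Cox6a, had 312 UMIs in each library, 6.80 CPM in the TMEM16F KO and 7.25 CPM in the vector control library. Those UMIs sat in 66 TMEM16F KO and 68 vector control cells, with as many as 30 and 37 in 1 cell. Cells with at least 3 UMIs of Siglech, a surface lectin of plasmacytoid dendritic cells and one of the fixed dendritic cell markers, came to 19 TMEM16F KO and 15 vector control cells. They held 81.1% and 80.4% of all Cox6a2 UMIs, at 1578 CPM and 2451 CPM, against 1.29 CPM and 1.42 CPM in all other kept cells. The look at Siglech was chosen after the class values of Cox6a2 had been seen. By class, Cox6a2 was called higher in DC-like cells of the TMEM16F KO library (63.2 against 42.1 CPM) and lower in its monocyte-like cells (4.54 against 15.7 CPM), but 37 of the 38 UMIs of vector control monocyte-like cells came from 1 cell, as did all 37 of vector control Treg-like cells, and 5 and 4 cells held those of DC-like cells. Cox7a1, another muscle isoform, had 4.73 against 7.56 CPM (log2 ratio -0.68), mainly in macrophage-like cells (7.09 against 9.87 CPM), and Cox6b2, an isoform of testis, had 2.57 against 3.09 CPM.

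**Figure D4:**
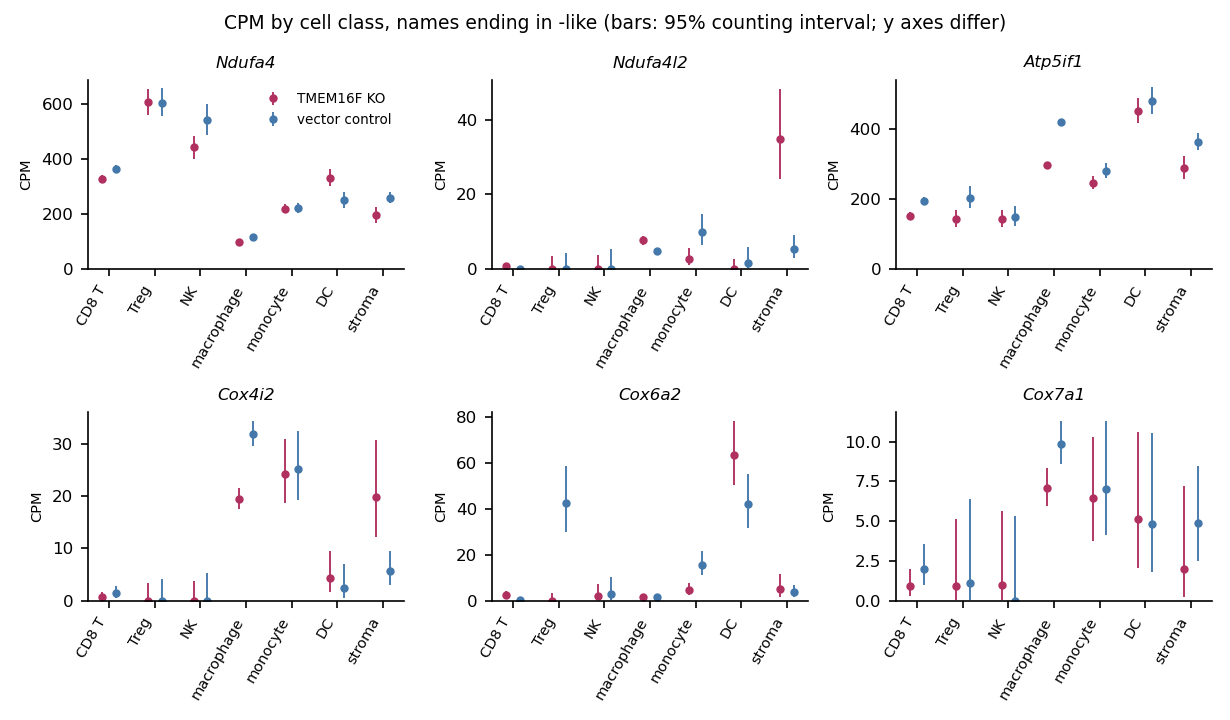
CPM (vertical axis, scales differ) of 6 members in 7 cell classes, TMEM16F KO left of vector control in each pair, with 95% counting intervals. Ndufa4 is highest in Treg-like cells (606 and 605 CPM) and lowest in macrophage-like cells (98.5 and 115 CPM), Atp5if1 is highest in DC-like cells, and Cox6a2 is high in DC-like cells and in vector control Treg-like cells, where 1 cell held all 37 UMIs.

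Ndufa4 itself (chr6:11900292-11907497, minus strand), a structural subunit of complex IV first ascribed to complex I, varied most between classes among the members with UMIs in every class of both libraries. It had 606 CPM in Treg-like cells of the TMEM16F KO and 605 CPM in those of the vector control library, followed by NK-like cells at 441 and 541 CPM. CD8 T-like cells had 326 and 362 CPM, DC-like cells 331 and 248 CPM, stroma-like cells 194 and 259 CPM and monocyte-like cells 218 and 220.5 CPM. Macrophage-like cells had the least of the 7 classes, 98.5 and 115 CPM, so that the Treg-like level was 6.15-fold the macrophage-like level in the TMEM16F KO and 5.27-fold in the vector control library. The 3 lymphocyte classes kept their order in both libraries, although the Treg-like and NK-like intervals overlapped in the vector control library, while the places of CD8 T-like, DC-like, stroma-like and monocyte-like cells differed between the libraries. Between the libraries Ndufa4 was called higher in TMEM16F KO DC-like cells (log2 ratio 0.41) and lower in TMEM16F KO stroma-like cells (-0.41). In both libraries cycling CD8 T-like cells had 1.43-fold the Ndufa4 level of the other CD8 T-like cells, at 415 against 290 CPM (TMEM16F KO) and 443 against 309 CPM (vector control), whereas in macrophage-like cells the ratios were 0.93 and 1.01.

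Complex V had 19 members with 50 UMIs, all below 1. In its catalytic head, Atp5f1a had 263 CPM in the TMEM16F KO and 307 CPM in the vector control library and Atp5f1b, which holds the catalytic sites, 308 against 369 CPM (log2 ratio -0.26). In the central stalk, Atp5f1c (352 against 377 CPM, -0.10) and Atp5f1d (426 against 462 CPM, -0.12) lay nearer to 1 than Atp5f1e (603 against 744 CPM, -0.30). The most abundant transcripts beside Atp5f1e were Atp5mg, of the membrane part, at 691 against 727 CPM (-0.07), and Atp5pd, of the peripheral stalk, at 515 against 581 CPM (-0.17). The 3 genes Atp5mc1, Atp5mc2 and Atp5mc3 encode the same mature c-ring protein. Of these Atp5mc1 had 376 against 472 CPM (-0.33), Atp5mc2 had 27.1 against 40.8 CPM (-0.59) and Atp5mc3 had 280 against 332 CPM (-0.24). The first 2 were called lower and Atp5mc3 was not. Atp5mf, a small membrane subunit, was called lower at 298 against 374 CPM (-0.33). Atp5po is listed under 2 gene IDs, and its second, overlapping entry had 88 and 83 UMIs that may belong to the first.

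Atp5if1 (chr4:132530555-132533659, minus strand), the inhibitor that stops complex V from running backwards and burning ATP, had the lowest ratio of the members above 50 CPM in both libraries. It stood at 256 CPM in the TMEM16F KO and 354 CPM in the vector control library over all kept cells, a ratio of 0.722 (0.705 to 0.740). In macrophage-like cells it had 297 against 419 CPM (log2 ratio -0.50), in CD8 T-like cells 151 against 193 CPM (-0.35), in Treg-like cells 142 against 203 CPM (-0.52) and in stroma-like cells 287 against 363 CPM (-0.34), each called lower. In NK-like cells (142 against 149 CPM), monocyte-like cells (246 against 280 CPM) and DC-like cells (450.4 against 479 CPM) it was not called. Its level was highest in DC-like cells and about 3.2-fold lower in the class with the least, Treg-like cells in the TMEM16F KO and NK-like cells in the vector control library. Cycling cells had more of it than the other cells of their class in both libraries, 1.60-fold and 1.46-fold in CD8 T-like cells and 1.27-fold and 1.33-fold in macrophage-like cells. The log2 ratio between the libraries was -0.46 in cycling and -0.39 in non-cycling macrophage-like cells, and -0.21 in cycling and -0.34 in non-cycling CD8 T-like cells. Without Atp5if1 the complex V sum had a log2 ratio of -0.21.

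Macrophage-like cells, the class with the most UMIs, had the most members with an interval below 1 among the compared classes. Counting intervals narrow as UMIs rise, so this count does not rank the classes by the size of their differences. Of 87 members, 84 lay below 1 and 77 had an interval below 1. There 16 were called lower, while 11.3% of all genes were, and 1 was called higher, Ndufa4l2, while 14.6% of all genes were. The 16 were Ndufa5 and Ndufb4 of complex I, Uqcr10, Uqcr11 and Uqcrq of complex III, Cox4i2, Cox5b, Cox6a1 and Cox7a1 of complex IV, and Atp5f1b, Atp5f1e, Atp5if1, Atp5mc1, Atp5mc2, Atp5mc3 and Atp5mf of complex V. The median member log2 ratio was -0.24, against 0.01 for all genes of the class.

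In monocyte-like cells 71 of 82 members lay below 1, 12 were called lower while 4.65% of all genes were, and 0 were called higher while 8.54% of all genes were. Beside Cox6a2, whose vector control UMIs came almost wholly from 1 cell, the lowest ratios among the called members there were those of Uqcr11 and of Ndufv3 (187 against 257 CPM, -0.46), an accessory subunit of complex I in its NADH-binding part. In DC-like cells 68 of 80 lay below 1, 13 were called lower while 5.36% of all genes were, and 2 were called higher, Ndufa4 and Cox6a2, while 7.50% of all genes were. Complex I gave 8 of those 13, among them Ndufa5 (71.3 against 109 CPM, -0.62) and Ndufb1 (279 against 372 CPM, -0.41).

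Among lymphocytes, of 81 members in CD8 T-like cells, 73 lay below 1 and 6 were called lower (Ndufa12, Ndufb4, Ndufs1, Uqcr10, Atp5if1 and Atp5mc2), while 8.77% of all genes were, and 0 were called higher while 10.5% of all genes were. Of 80 in Treg-like cells, 59 lay below 1, 6 were called lower while 4.94% of all genes were, and 2 were called higher while 7.46% of all genes were. Those 2 were Ndufa9 (65.8 against 40.2 CPM, from 71 and 35 UMIs) and Ndufb3 (156 against 119 CPM). Of 78 in NK-like cells, 60 lay below 1, 8 were called lower while 4.47% of all genes were, and 0 were called higher while 10.2% of all genes were. Ndufa9 was among the 8, at 42.3 against 66.3 CPM from 42 and 46 UMIs.

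In stroma-like cells, of which 41.8% were cycling in TMEM16F KO and 66.7% in vector control tumours, 56 of 80 members lay below 1. There 8 were called lower while 12.2% of all genes were, and 0 were called higher while 14.6% of all genes were. The 8 included Ndufs1 (13.93 against 32.02 CPM, from 14 and 79 UMIs), Ndufb3 (128 against 201 CPM) and Atp5f1a (288 against 416 CPM).

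Genes that build, feed or regulate the complexes were set beside the members. Of the 46 assembly factors, which put the complexes together and are no part of them, 45 had 50 UMIs over all kept cells, 34 lay below 1, 5 were called lower (Cox20, Cmc2, Sco1, Uqcc2 and Ndufaf7) and 0 higher, with a median log2 ratio of -0.16. Those 5 are a share near the 11.4% of all genes called lower, while 13.5% of all genes were called higher. All 13 TCA cycle genes, which supply NADH and succinate, lay below 1, with a median of -0.20. Fumarase, Fh1, was called lower over all kept cells, at 38.4 against 49.6 CPM, and 6 of the 13 were called lower in macrophage-like cells, where 11.3% of all genes were, led by Idh3a of the isocitrate dehydrogenase at 28.5 against 43.0 CPM (-0.59). Of 14 regulators of mitochondrial biogenesis, 13 had 50 UMIs and 7 lay below 1 over all kept cells, with a median of -0.04. None of them was called there, while 11.4% of all genes were called lower and 13.5% higher. In macrophage-like cells 3 of 13 were called lower, where 11.3% of all genes were. These were Tfam (11.8 against 15.4 CPM), Myc (20.7 against 28.6 CPM) and Ppargc1b (5.87 against 7.88 CPM). Elsewhere Myc was called lower in CD8 T-like cells and Nrf1 higher in NK-like cells. In stroma-like cells Tfb2m and Nrf1 were called lower and Yy1 higher. Of 11 carriers and electron donors, 8 lay below 1. Slc25a4, which exchanges ATP for ADP across the inner membrane, was called lower at 193 against 269 CPM (-0.48). Acod1, which makes itaconate, an inhibitor of succinate dehydrogenase, was called higher at 129 against 92.0 CPM (0.48), and in macrophage-like cells at 155 against 108 CPM (0.52), but lower in DC-like cells at 33.8 against 67.2 CPM (-0.99), from 46 and 83 UMIs. It was also called higher in CD8 T-like, Treg-like, monocyte-like and stroma-like cells. The summed phagocyte markers were also higher in TMEM16F KO CD8 T-like, Treg-like and stroma-like cells, and the part of foreign transcripts in these Acod1 calls was not tested.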

How the data were processed

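Whole UMI counts per gene and barcode were deposited by the authors, with no normalization, as Cell Ranger 8.0.0 matrices per the file headers. The submitters' processing notes name mm10 as build and Seurat 3.1.1 as a tool, with no annotation. A barcode was kept when it had 200 genes or more and less than 20% mitochondrial UMIs. Scrublet's automatic threshold marked 0 barcodes in both libraries and so did not work; the highest scores were left out instead at 0.8% per 1000 barcodes (287 TMEM16F KO and 221 vector control barcodes). Cells were classed by UMIs of marker lists: at least 3 marker genes for T, NK, DC-like and stroma-like cells, 4 for neutrophil-like and 5 for phagocyte-like cells, with T cell markers at 8 or more per 10000 UMIs and phagocyte markers at 60 or more. These limits were chosen with the data in view, and class names are not the authors', so shares need not match the study's.

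UMIs were summed over the cells of a class and given as CPM, with exact Poisson intervals; ratios have exact conditional binomial intervals and shares exact Clopper-Pearson intervals (95%). With 1 library per group, nothing was tested between groups. A gene was called with at least 50 UMIs, a log2 ratio past 0.32 and an interval that excludes 1. The calls and intervals were run on simulated Poisson counts. These have no spread between cells or libraries beyond counting error, so the run cannot check the calls for such spread. The members and lists were chosen with earlier results of these data known. Named were the 3 most abundant members of a complex, the 2 furthest up and down, all of complex II and Cycs, called members, isoforms, and the member of each complex with the widest range over classes. Gene positions are from GENCODE M21 (GRCm38, the assembly of mm10), and promoter windows from RefSeq (GRCm38.p6), matched by gene ID, symbol or synonym. The entry called Ndufb1 in the files carries a pseudogene name in GENCODE M21 and was kept, and Ndufb4b has no position there. Alternatives were another denominator, median-ratio scaling, equal cell weights, no doublet removal, a depth limit, no cycling cells, a lower mitochondrial limit, stricter classes and other call limits. Python 3.11.15, numpy 2.4.6, scipy 1.17.1, pandas 2.3.3, scanpy 1.11.5 and matplotlib 3.10.9 were used.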

Additional observations from a re-analysis of the deposited data

Results flagged for a closer look

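Some members, and the mitochondrially encoded subunits, were higher in the TMEM16F KO library in one cell class and lower in another, each with a counting interval on that side. The differences between classes were not tested, and with 1 library per group they have no replicate check. Ndufa4 had a log2 ratio of 0.41 in DC-like cells and -0.41 in stroma-like cells, from 450 and 307 UMIs in TMEM16F KO and vector control DC-like cells and 195 and 638 UMIs in stroma-like cells. Ndufa9 had 0.71 in Treg-like and -0.65 in NK-like cells, all from under 72 UMIs a library. Ndufb3 had 0.38 in Treg-like and -0.65 in stroma-like cells. Cox6a2 had 0.59 in DC-like and -1.79 in monocyte-like cells, where 1 vector control cell held 37 of 38 UMIs. The 13 mitochondrially encoded subunits together had 0.25 in CD8 T-like, 0.12 in NK-like, 0.17 in macrophage-like and 0.23 in stroma-like cells, and -0.25 in Treg-like cells. With cells weighted alike, CD8 T-like cells went the other way, with a mean share of 0.355% in TMEM16F KO and 0.370% in vector control cells. The mean shares kept their direction in NK-like (0.304% against 0.245%), macrophage-like (0.524% against 0.319%), stroma-like (1.34% against 0.825%) and Treg-like cells (0.289% against 0.395%).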

How the results depend on the processing

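The log2 ratio of all members stayed below 0 in all kept cells and in each of the 7 classes under all 8 alternatives. With mitochondrial, ribosomal protein and haemoglobin genes out of the denominator it was -0.25 in all kept cells, -0.17 in CD8 T-like, -0.14 in Treg-like, -0.16 in NK-like, -0.29 in macrophage-like, -0.22 in monocyte-like, -0.18 in DC-like and -0.17 in stroma-like cells. Without cycling cells it was -0.18 in all kept cells, -0.10 in CD8 T-like, -0.043 in Treg-like, -0.063 in NK-like, -0.20 in macrophage-like and -0.14 in stroma-like cells. With cells weighted alike it was -0.27 in all kept cells, -0.056 in Treg-like, -0.34 in macrophage-like and -0.11 in stroma-like cells. Median-ratio scaling gave -0.22 in all kept cells, -0.18 in NK-like, -0.24 in macrophage-like, -0.20 in monocyte-like and -0.051 in stroma-like cells. With doublet scores ignored it was -0.13 in CD8 T-like, -0.23 in NK-like and -0.14 in stroma-like cells. Cells with at least 2000 UMIs gave -0.19 in all kept cells and -0.22 in macrophage-like cells, and stricter classes -0.10 in DC-like cells. The other values of this sum over all members stayed within the counting interval, among them all 8 with a mitochondrial limit of 10%.

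The gap between the highest and lowest complex over all kept cells, 0.06, was 0.081 with cells weighted alike and 0.092 without cycling cells. The Treg-like over macrophage-like level of Ndufa4 was 5.11-fold in the TMEM16F KO and 4.43-fold in the vector control library with cells weighted alike, and 5.48-fold and 4.75-fold without cycling cells. At 1.5-fold, 3 members in place of 11 were called lower over all kept cells. Complex III in stroma-like cells turned from below 0 to 0.0020 with cells weighted alike, and Cycs in Treg-like cells to 0.11 without cycling cells. The causes were not tested. No paired analysis was possible because each group has 1 library. Counting intervals limit classes of few cells most: the intervals of complex II in Treg-like, NK-like and stroma-like cells included no difference.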

Other observations

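AA467197 (also known as Nmes1), a relative of Ndufa4 outside the symbol rule, was read beside it after the class values of Ndufa4 had been seen. It was higher in phagocyte-like classes than in lymphocyte-like ones, where Ndufa4 was higher in lymphocyte-like ones. AA467197 was lowest in Treg-like cells, at 134 CPM in the TMEM16F KO and 134 CPM in the vector control library, where Ndufa4 was highest at 606 and 605 CPM. It was highest in monocyte-like cells, at 1625 and 1754 CPM, followed by macrophage-like cells at 1167 and 1122 CPM, where Ndufa4 was lowest at 98.5 and 115 CPM. CD8 T-like cells had 295 and 224 CPM and NK-like cells 216 and 238 CPM of AA467197. DC-like cells had 715 and 979 CPM, and stroma-like cells 364 and 192 CPM, the class in which the libraries differed most. The summed phagocyte markers were also higher in TMEM16F KO CD8 T-like, Treg-like, NK-like and stroma-like cells, and lower in DC-like cells. The part of foreign transcripts in these AA467197 levels was not tested. Over all kept cells its level was 891 CPM in the TMEM16F KO and 899.6 CPM in the vector control library, close to Cox4i1 at 922 and 989 CPM. As background, its human counterpart is known to take the place of the NDUFA4 protein in complex IV of inflamed cells. Whether that holds in these cells was not tested, and these 7 classes from 2 libraries are given as a description.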
